A study of Mus musculus with 6 samples.

Results

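The ADAM, ADAMTS and ADAMTS-like genes and the TIMP genes were examined in mouse embryonic fibroblasts (MEFs) that had crossed 3 μm pores. Members were the protein-coding genes of the count table whose GENCODE M21 symbol is Adam, Adamts or Adamtsl followed by a number, or Timp1 to Timp4. The rule gave 61 of the 55335 genes counted, which are 33 ADAM, 19 ADAMTS, 5 ADAMTS-like and 4 TIMP genes. RNA-seq was performed on wild-type MEFs, a fibroblast line that the study received from another laboratory. In the Confine group, cells had 15 h to migrate through the 3 μm pores of a transwell and only those that had passed were harvested, while the Ctrl group was the parental MEFs. Both groups shared the line and the genotype, and the labels give a growth medium with 10% fetal bovine serum for both. The sources used here do not say whether the insert itself held serum, or whether Ctrl cells were kept on a membrane or for the same time, so passage through the pores and culture on the insert cannot be told apart. Each group had 3 deposited columns, but Confine replicates 1 and 2 held the same count in all 55335 genes and were counted as 1 sample, called Confine 2 here. The comparison therefore rested on 3 Ctrl and 2 Confine libraries, and since nothing says that they came from separate cultures, p-values measure only the spread between these libraries.

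Libraries held between 22287210 and 32537550 counts. Of the 9 fibroblast markers listed for this work, the 6 that were tested had at least 556 counts in every library, whereas Thy1, Dcn and Lum had at most 27 counts in any library. The fibroblast markers summed to 8074 to 8814 counts-per-million (CPM) in Ctrl and to 14186 and 14868 CPM in Confine. The leukocyte markers summed to 15.8 to 17.8 CPM in Ctrl and 35.6 to 41.3 CPM in Confine, of which Cd68, Csf1r and Cd14 were higher and Lyz2 lower in Confine. Ptprc, the pan-leukocyte surface phosphatase, had 2 counts in Ctrl 1 and 0 in every other library, and Adgre1 and Cd3e were at 0 throughout. Epithelial, endothelial and male germ cell markers each summed to at most 0.718 CPM in any library.

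ADAM proteins are membrane-anchored proteases that cut the extracellular part off growth factors, cytokine receptors and adhesion molecules, a step called shedding. ADAMTS proteins are their secreted relatives with thrombospondin repeats, which cleave proteoglycans such as versican and aggrecan, trim procollagens or act on fibrillin microfibrils. ADAMTS-like proteins keep the thrombospondin repeats but lack the protease domain. TIMP proteins are secreted inhibitors that block matrix metalloproteinases (MMPs), and TIMP3, which binds to the matrix, also blocks several ADAM and ADAMTS enzymes.

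Of the 61 members, 27 passed edgeR's filter on low counts and were tested, which are 10 ADAM, 10 ADAMTS, 4 ADAMTS-like and 3 TIMP genes. Of these 27, 25 had at least 10 counts in every library. The other 34 were left out by this filter. Among them, 19 had 0 counts in every library and 15 had at most 12 counts in any library. Most of the silent genes were ADAMs, a family with many members known from testis. Adam1b, Adam3, Adam6a, Adam6b, Adam7, Adam20, Adam23, Adam24, Adam25, Adam26a, Adam26b, Adam28, Adam29, Adam34 and Adam39 had no counts, and neither did Adamts3, Adamts8, Adamts15 and Adamts19. In these libraries a count of 0 allows up to 3 counts, or 0.101 to 0.128 normalized CPM, for counting error only. Adamts20, a proteoglycan-cleaving member, had 11, 7 and 6 counts in Ctrl and 0 in both Confine libraries. Its mean level was thus at least 2.72-fold lower in Confine, against a floor of 3 counts in each Confine library.

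Between Confine and Ctrl, 14 of the 27 tested members (51.9%) had an adjusted p under 0.05 in the quasi-likelihood test of edgeR, adjusted by Benjamini-Hochberg over all 15881 genes tested. The same was true of 23.0% of all genes tested. Of the 14 members, 9 were higher in Confine, against 12.8% of all genes, and 5 were lower, against 10.2%. Genes with an absolute log2 fold change above 1.5 as well, the size cutoff of the study, are called upregulated or downregulated here. There were 8 such members (29.6%, against 8.00% of all genes). The 5 upregulated members (18.5%, against 4.89%) were Adam19, Adamts7, Adam8, Adam12 and Adamts4, and the 3 downregulated members (11.1%, against 3.11%) were Adamts5, Adamtsl1 and Adamts1. The median log2 fold change was 0.18 over the 27 members and -0.0021 over all genes tested, and the median absolute log2 fold change was 0.65 and 0.39. Both Confine libraries lay above all 3 Ctrl libraries in 10 members, where 25.9% of all genes did so, and below them in 7, where 23.6% did so. In bulk RNA, a change in the share of cells that express a gene and a change in RNA per cell cannot be told apart.

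**Figure D1:**
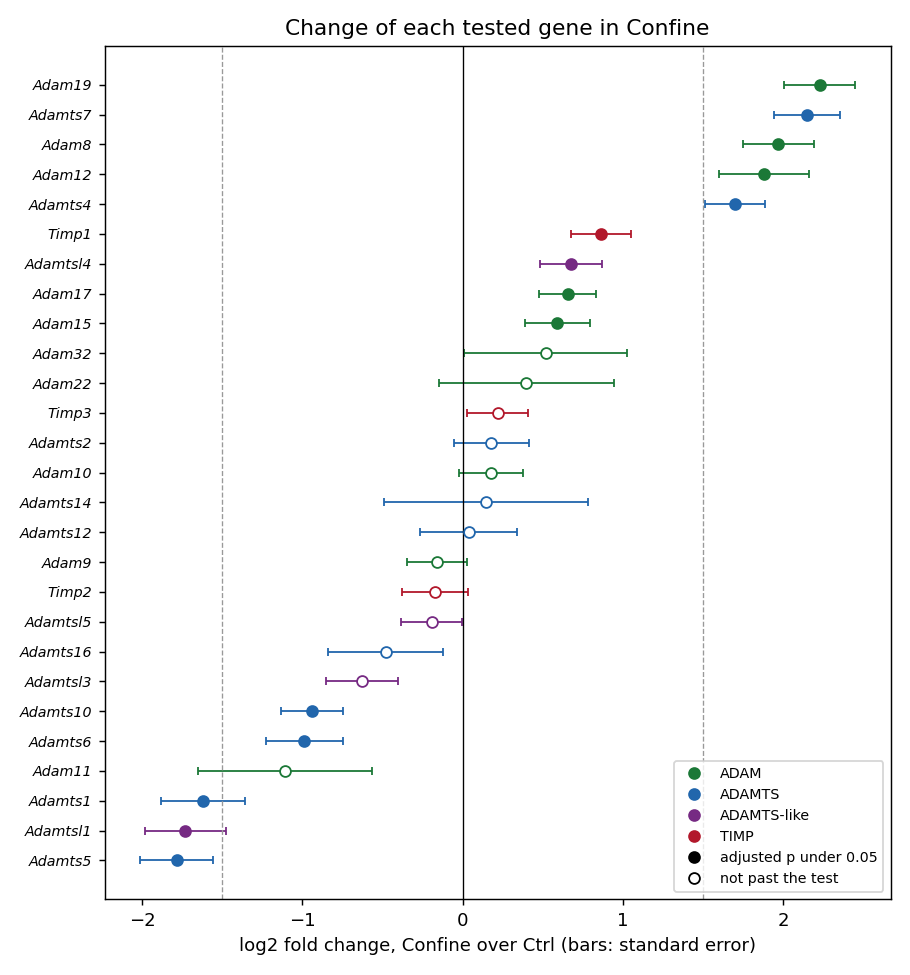
Log2 fold change of each of the 27 tested members, Confine over Ctrl, from edgeR, with bars of 1 standard error (3 Ctrl and 2 Confine libraries). Filled points had an adjusted p under 0.05, dashed lines mark the cutoff of 1.5, and colors mark the families: all 5 filled ADAM points lie to the right of 0, whereas filled ADAMTS points lie on both sides.

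Levels are given as RPKM, normalized CPM divided by the summed length of a gene's exons in kilobases, so that genes can be compared. Adam10, the ADAM that cleaves Notch receptors and many adhesion molecules, was the most abundant protease of the members. It was measured at 89.9, 121 and 90.7 RPKM in Ctrl and 133 and 94.7 RPKM in Confine. The groups overlapped, and the log2 fold change of 0.18 (standard error 0.20) did not pass the test (edgeR adjusted p = 0.582). Adam17, the sheddase of TNF and of several EGF receptor ligands, was measured at 6.73, 7.60 and 6.61 RPKM in Ctrl and 11.5 and 10.5 RPKM in Confine. The groups did not overlap, with a log2 fold change of 0.65 (standard error 0.18, edgeR adjusted p = 0.0113). This call was lost when any of 3 libraries was left out: the adjusted p was 0.055 without Ctrl 1, 0.13 without Confine 2 and 0.0662 without Confine 3. Its exons overlap those of Iah1 on the opposite strand by 311 bases, and Iah1 did not pass the test (edgeR adjusted p = 0.559). Within each library, Adam10 exceeded Adam17 by 13.4, 16.0 and 13.7 times in Ctrl and by 11.6 and 9.02 times in Confine. Adam9, another broadly expressed sheddase, had 14.3 to 17.4 RPKM in Ctrl and 13.2 and 15.8 RPKM in Confine, again with overlapping groups (log2 fold change -0.16, standard error 0.19, edgeR adjusted p = 0.589).

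The largest changes among ADAMs were in genes with lower levels. Adam19, a protease known for its part in heart development and for cleaving neuregulin, was measured at 0.714, 0.834 and 0.568 RPKM in Ctrl and at 3.13 and 3.49 RPKM in Confine. Every Confine value was thus several times every Ctrl value, and the log2 fold change of 2.23 (standard error 0.22) had an edgeR adjusted p of 6.58e-07. Adam8, found on leukocytes and on many tumour cells, rose from 1.39, 1.35 and 1.504 RPKM to 4.36 and 6.74 RPKM (log2 fold change 1.97, standard error 0.22, edgeR adjusted p = 2.87e-06). The Ctrl values lay close together, and the Confine libraries differed from each other more than the Ctrl libraries did. Of the 9 leukocyte markers, 4 were tested, of which Cd68, Csf1r and Cd14 were also higher and Lyz2 was lower, while Ptprc, Itgam, Adgre1 and Cd3e had at most 2 counts. Their part in the change of Adam8 was not tested. Adam12, a protease of muscle and mesenchyme that cleaves insulin-like growth factor binding proteins, was measured at 0.699, 0.504 and 0.290 RPKM in Ctrl and at 2.096 and 1.58 RPKM in Confine. The gene spans 133883199 to 134232146 on chromosome 7, minus strand (GRCm38). The groups were separate although Ctrl itself was spread, giving a log2 fold change of 1.88 (standard error 0.28, edgeR adjusted p = 6.57e-05). Adam12, Adam17, Adamts2 and Adamtsl4 share stretches of at least 100 bases at 95% identity or more with transcripts of genes elsewhere in the genome, so their counts are uncertain to that extent. Adam15, which carries an integrin-binding RGD motif in humans, had 3.95, 4.90 and 3.64 RPKM in Ctrl and 5.15 and 7.39 RPKM in Confine. Its log2 fold change of 0.59 (standard error 0.20) passed narrowly (edgeR adjusted p = 0.0444), and without Confine 3 it was 0.31 (adjusted p = 0.542). It also failed without Ctrl 1 (adjusted p = 0.134) and without Ctrl 3 (adjusted p = 0.125), and lost its call in 8 of 14 alternative fits in all.

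The neuronal, catalytically inactive relatives Adam11 and Adam22 and the little-studied Adam32 were near the limit of detection, with 8 to 30 counts in each library. Adam11 had 30, 17 and 24 counts in Ctrl and 15 and 8 in Confine and did not pass the test (edgeR adjusted p = 0.159). Adam32 is part of a block of 5 ADAM genes on the minus strand of chromosome 8, in the order Adam18, Adam3, Adam5, Adam32 and Adam9, from 24602246 to 25016927 (GRCm38). Adam9, at one end, lies 806 bases from Adam32, yet Adam9 had 1385 to 2032 counts per library and Adam32 12 to 24. Adam18, Adam3 and Adam5 had at most 5 counts in any library. Expression in this block was thus almost wholly that of Adam9 in both groups.

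The 250 bases before the annotated start are shown for Adam19 and Adam8, the upregulated ADAM genes with the largest fold changes, as given by RefSeq for GRCm38.p6, with motif matches in capitals. For Adam19, which has 3 listed starts, the one nearest to the GENCODE start is shown (chr11:46055734-46055983, plus strand), and for Adam8 the sequence is at chr7:139992563-139992812 on the minus strand.
Adam19: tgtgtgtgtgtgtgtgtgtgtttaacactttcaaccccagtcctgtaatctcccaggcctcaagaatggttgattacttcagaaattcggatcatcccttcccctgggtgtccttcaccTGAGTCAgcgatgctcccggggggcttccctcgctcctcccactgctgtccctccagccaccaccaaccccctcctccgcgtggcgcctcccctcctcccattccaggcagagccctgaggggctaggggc
Adam8: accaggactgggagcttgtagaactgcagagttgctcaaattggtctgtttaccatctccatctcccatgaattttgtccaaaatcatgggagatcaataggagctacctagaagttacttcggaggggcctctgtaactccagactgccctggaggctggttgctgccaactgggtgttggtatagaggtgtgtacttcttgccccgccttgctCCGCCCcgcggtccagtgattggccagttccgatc
The search covered both strands for TGANTCA (AP-1), TGACGTCA (the cAMP response element), ACGTG (the core of the hypoxia response element, which is also part of the palindromic E-box), the GC box GGGCGG and the TATA box TATAAA. Among all 32851 promoters in the RefSeq table, AP-1 letters were in 6.75%, the cAMP response element in 1.55%, ACGTG in 16.6%, GGGCGG in 32.7% and TATAAA in 12.4%. Of the 61 members, 35 had an entry, 7 of them among the 14 that passed the test. The Adam19 sequence holds an AP-1 match that opens 131 bases before the start, and the Adam8 sequence a GC box match, on the other strand, 35 bases before it. The 250 bases before the other listed starts of Adam19 hold no AP-1 letters, but each holds ACGTG. Over the 35 member genes, 4 held AP-1 letters, 0 the cAMP response element, 8 ACGTG, 18 GGGCGG and 5 TATAAA, and such matches describe the letters only.

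**Figure D2:**
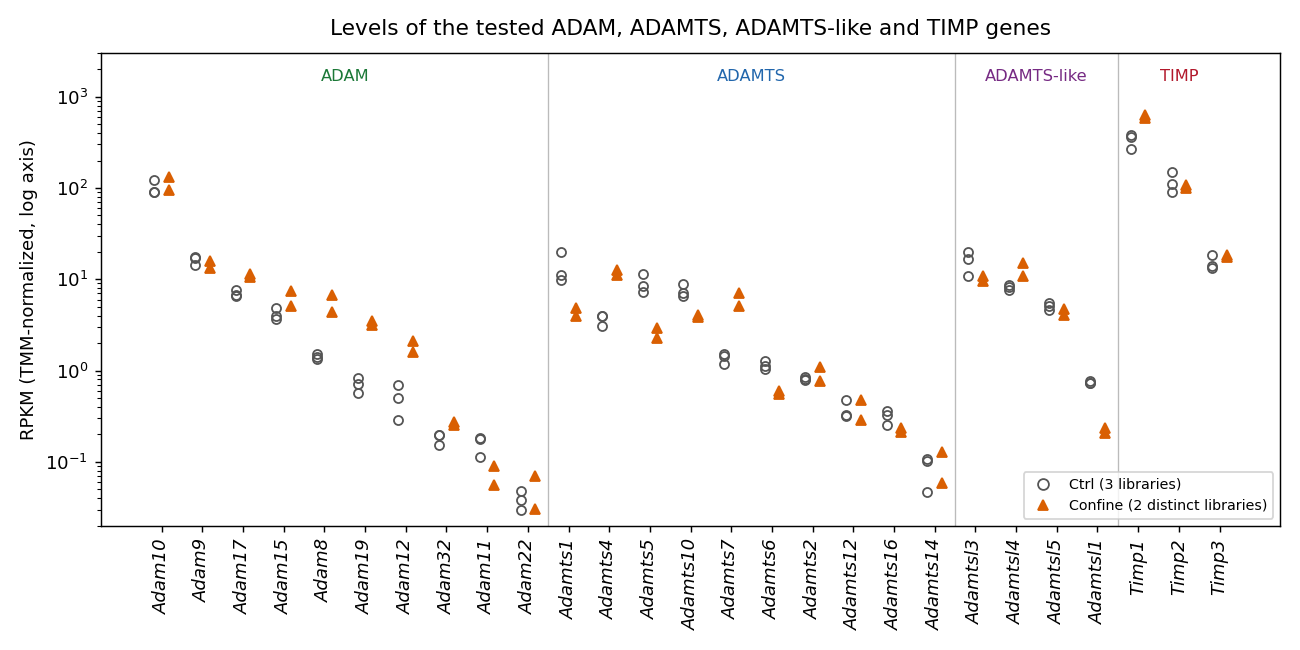
RPKM of each tested member on a log axis, with open circles for the 3 Ctrl libraries and filled triangles for the 2 distinct Confine libraries, ordered by mean level within each family. Timp1 stands highest at 269 to 630.5 RPKM, and the Confine values of Adamts1 and Adamts5 lie below and those of Adamts4 and Adamts7 above their Ctrl values.

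In the ADAMTS family, proteases that share substrates moved in opposite directions. Adamts4, Adamts5 and Adamts1 encode the proteoglycan-cleaving enzymes, of which the first pair are known as the main aggrecanases of cartilage. Adamts5 was measured at 11.4, 8.37 and 7.18 RPKM in Ctrl and 2.92 and 2.29 RPKM in Confine, so that the highest Confine value was below the lowest Ctrl value. On the log2 scale it fell by 1.78 (standard error 0.23, edgeR adjusted p = 1.11e-05). Adamts1 fell from 19.8, 11.2 and 9.79 RPKM to 3.96 and 4.88 RPKM, with a log2 fold change of -1.62 (standard error 0.26, edgeR adjusted p = 1.64e-04). Ctrl 1 was the highest Ctrl library for both genes, and without it the log2 fold change was -1.25 for Adamts1, short of the cutoff of 1.5, and -1.58 for Adamts5, both still with an adjusted p under 0.05. Without Confine 2 that of Adamts1 was -1.47, also short of the cutoff (adjusted p = 0.0146). Adamts4 was measured at 3.92, 3.07 and 4.01 RPKM in Ctrl and at 12.7 and 11.1 RPKM in Confine, with no overlap. This is a log2 fold change of 1.70 (standard error 0.19, edgeR adjusted p = 2.58e-06).

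Adamts5 and Adamts1 are next to each other on the minus strand of chromosome 16, Adamts1 from 85793827 to 85803113 and Adamts5 from 85856173 to 85901828 (GRCm38). The gap of 53.1 kb between them holds no other protein-coding gene. Adamts4 lies elsewhere, on chromosome 1 from 171250421 to 171260637. The promoter of Adamts1, the only member lower in Confine with a sequence in the RefSeq table, is shown in the same way (chr16:85803114-85803363, minus strand, GRCm38.p6).
Adamts1: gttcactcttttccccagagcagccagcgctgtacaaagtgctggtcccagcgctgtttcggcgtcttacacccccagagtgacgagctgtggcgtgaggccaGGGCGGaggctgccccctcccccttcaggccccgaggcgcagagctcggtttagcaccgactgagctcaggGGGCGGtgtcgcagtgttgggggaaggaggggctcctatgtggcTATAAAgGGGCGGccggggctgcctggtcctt
This sequence holds 3 GC box matches, which open 147, 76 and 25 bases before the start, and a TATAAA match at 32 bases. No AP-1 or ACGTG letters lie in these 250 bases.

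Adamts7, a protease known to cleave cartilage oligomeric matrix protein and studied in vascular smooth muscle, showed the largest change of the ADAMTS genes. It rose from 1.19, 1.51 and 1.44 RPKM in Ctrl to 7.12 and 5.11 RPKM in Confine. Both groups were well apart, at a log2 fold change of 2.15 (standard error 0.21, edgeR adjusted p = 4.85e-07). The gene lies on the plus strand of chromosome 9 from 90163069 to 90208071 (GRCm38). Its exons overlap those of Tbc1d2b on the opposite strand by 122 bases, and Tbc1d2b, with 451 to 666 counts per library, did not pass the test (edgeR adjusted p = 0.443). Adamts12, which shares its domain structure and substrate with Adamts7, had 0.315 to 0.471 RPKM in Ctrl and 0.291 and 0.476 RPKM in Confine. Its groups overlapped (log2 fold change 0.037, standard error 0.30, edgeR adjusted p = 0.949), and the difference in response between the pair was not tested.

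Adamts10 and Adamts6, which act on fibrillin microfibrils, were both lower in Confine. Adamts10 had 7.15, 6.54 and 8.98 RPKM in Ctrl and 3.83 and 4.05 RPKM in Confine (log2 fold change -0.94, standard error 0.20, edgeR adjusted p = 0.00163). Adamts6 had 1.13, 1.26 and 1.05 RPKM in Ctrl and 0.555 and 0.601 RPKM in Confine (log2 fold change -0.99, standard error 0.24, edgeR adjusted p = 0.00534). In both genes the groups were separate and each group was narrow, but with Confine 3 as the only Confine library the adjusted p of Adamts6 was 0.0685. The procollagen N-propeptidases did not pass the test. Adamts2 had 0.781 to 0.861 RPKM in Ctrl and 0.771 and 1.09 RPKM in Confine (edgeR adjusted p = 0.641), Adamts14 had 7 to 17 counts per library (edgeR adjusted p = 0.902), and Adamts3 had none. Adamts16 had 46 to 72 counts in Ctrl and 48 and 37 in Confine (edgeR adjusted p = 0.372).

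The summed level of the 19 ADAMTS genes changed less than its makeup. The sum was 46.3, 33.4 and 34.1 RPKM in Ctrl and 32.4 and 30.0 RPKM in Confine. Adamts1 and Adamts5 together made up 67.3%, 58.4% and 49.7% of the sum in Ctrl and 21.2% and 23.9% in Confine. Adamts4 and Adamts7 together made up 11.0%, 13.7% and 16.0% in Ctrl and 61.0% and 54.1% in Confine. The ratio of Adamts5 to Adamts4 RPKM was 2.91, 2.72 and 1.79 in Ctrl and 0.231 and 0.205 in Confine. In Ctrl, Adamts5 was thus the more abundant of the main aggrecanases, and in Confine Adamts4 was. These pairs of genes were grouped after their values were seen, so the shares and ratios are a description without a test.

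**Figure D3:**
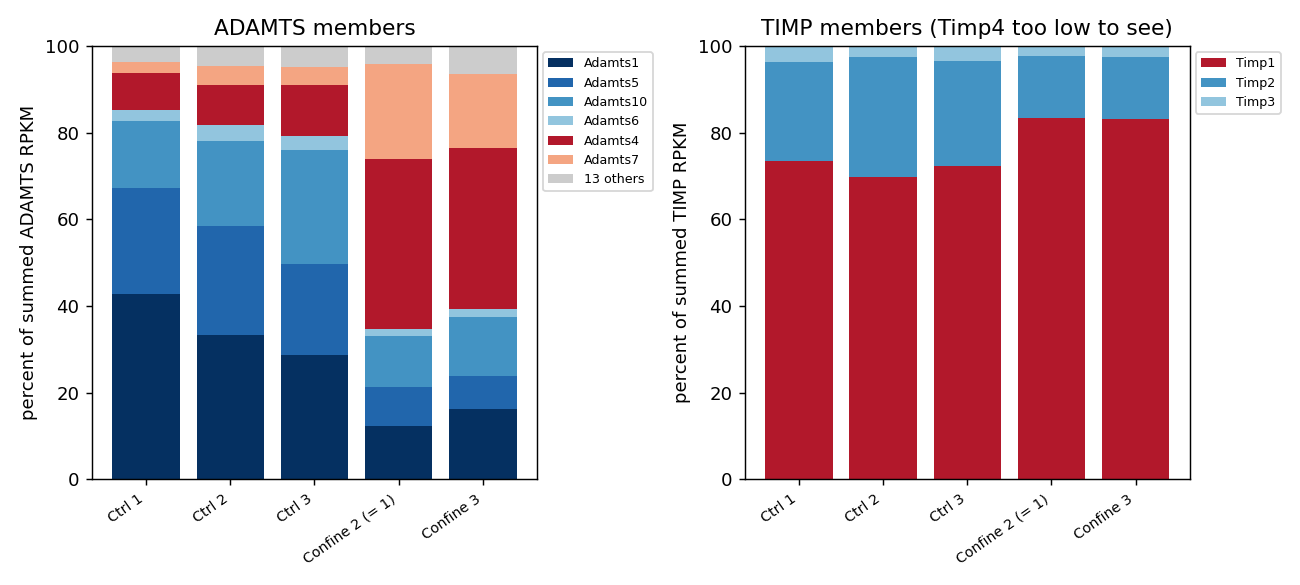
Share of each gene in the summed RPKM of the ADAMTS family (left) and the TIMP family (right), in percent, for each of the 5 distinct libraries. Blue shades on the left are Adamts1, Adamts5, Adamts10 and Adamts6 and red shades Adamts4 and Adamts7, which fill 54.1% and 61.0% of the Confine bars. On the right the red part, Timp1, is 69.8% to 73.4% in Ctrl and 83.2% to 83.5% in Confine.

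ADAMTS-like genes also differed among themselves. Adamtsl1, which encodes the matrix protein punctin, had 0.722, 0.767 and 0.726 RPKM in Ctrl and 0.209 and 0.236 RPKM in Confine. The gene spans 85514172 to 86428385 on chromosome 4 (GRCm38). Both groups were tight and far apart, with a log2 fold change of -1.73 (standard error 0.25, edgeR adjusted p = 5.16e-05). Adamtsl4, a fibrillin-binding protein of the lens zonule, had 8.15, 7.71 and 8.60 RPKM in Ctrl and 10.8 and 15.3 RPKM in Confine (log2 fold change 0.68, standard error 0.19, edgeR adjusted p = 0.015). Confine 3 carried much of this difference, and without it the log2 fold change was 0.40 (adjusted p = 0.356). Adamtsl3, the most abundant of these genes, had 19.9, 10.8 and 16.8 RPKM in Ctrl and 10.8 and 9.64 RPKM in Confine. Ctrl 2 reached down to the Confine values, and the log2 fold change of -0.63 (standard error 0.23) missed the threshold (edgeR adjusted p = 0.0534). Without Ctrl 2 it was -0.85 (adjusted p = 0.0017), and Adamtsl3 passed in 6 of 14 alternative fits in all, DESeq2 among them (adjusted p = 0.0408). Adamtsl5 had overlapping groups (log2 fold change -0.19, edgeR adjusted p = 0.519), and Adamtsl2 had 1 count in each of 2 libraries.

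Timp1 was the most abundant of all 61 members. Its level was 359.9, 379.98 and 269 RPKM in Ctrl and 630.5 and 590.2 RPKM in Confine, so that both Confine libraries were above every Ctrl library. Timp1 rose by 0.86 on the log2 scale (standard error 0.19, edgeR adjusted p = 0.00232), and the change stayed between 0.65 and 0.97 in all 14 alternative fits, with an adjusted p of at most 0.0303. Timp2, which helps to activate MMP2 at the cell surface as well as inhibiting MMPs, had 112, 150.4 and 89.8 RPKM in Ctrl and 107 and 101 RPKM in Confine. The Confine values fell inside the Ctrl range, with a log2 fold change of -0.17 (standard error 0.21, edgeR adjusted p = 0.612). Timp3 had 18.6, 14.2 and 13.2 RPKM in Ctrl and 17.4 and 18.3 RPKM in Confine, also overlapping (log2 fold change 0.22, standard error 0.19, edgeR adjusted p = 0.459). Timp4 had 4 to 9 counts in Ctrl and 5 and 12 in Confine and was not tested.

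The summed TIMP level was 490.2, 545 and 372 RPKM in Ctrl and 755 and 709 RPKM in Confine. Timp1 made up 69.8% to 73.4% of this sum in Ctrl and 83.5% and 83.2% in Confine. Timp3, which encodes an inhibitor of several ADAM and ADAMTS enzymes, made up 2.60% to 3.80% in Ctrl and 2.30% and 2.58% in Confine. The TIMP sum thus mostly describes Timp1. The ratio of Timp1 to Timp2 RPKM was 3.22, 2.53 and 2.99 in Ctrl and 5.87 and 5.85 in Confine. Set against the proteases, the TIMP sum was 10.6, 16.3 and 10.9 times the ADAMTS sum in Ctrl and 23.3 and 23.6 times in Confine. Adam10 made up 74.2%, 78.6% and 76.7% of the ADAM sum in Ctrl and 76.9% and 67.3% in Confine. The ADAM sum thus mostly describes Adam10. Against it, the TIMP sum was 4.05, 3.53 and 3.14 times in Ctrl and 4.37 and 5.04 times in Confine. These are ratios of RNA levels per length, chosen after values were seen, and say nothing of protein.

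Timp1, Timp3 and Timp4 each lie wholly within a synapsin gene on the opposite strand, a layout known for this family. Timp1 lies in Syn1 on the X chromosome (20870166 to 20874735, GRCm38), Timp3 in Syn3 on chromosome 10 and Timp4 in Syn2 on chromosome 6. The hosts, which are neuronal genes, had at most 24 counts in any library. Syn1 had 11, 7 and 4 counts in Ctrl and 19 in each Confine library (edgeR adjusted p = 0.126), against a mean of 10713 counts for Timp1. The exons of Timp3 and Syn3 overlap by 1733 bases, and over the whole genes the mean was 3582 counts for Timp3 and 15.4 for Syn3. The promoter of Timp1 is at chrX:20869916-20870165 (plus strand, GRCm38.p6).
Timp1: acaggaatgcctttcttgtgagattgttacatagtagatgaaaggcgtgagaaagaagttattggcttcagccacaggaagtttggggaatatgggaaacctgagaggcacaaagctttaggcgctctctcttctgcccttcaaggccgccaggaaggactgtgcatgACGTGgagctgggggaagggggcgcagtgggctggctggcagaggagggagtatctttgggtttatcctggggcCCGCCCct
Capitals mark an ACGTG match that opens 82 bases before the start and a GC box match, on the other strand, 8 bases before it.

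Genes known to act with these proteases were taken from lists written for this work with earlier results of these data known. Of 13 genes for ADAM maturation, 10 were tested, 2 were higher, 1 was lower and 7 did not pass, where 12.8% of all genes tested were higher and 10.2% lower. The 3 of 10 that passed are thus close to the 23.0% of all genes. Furin, the convertase that removes the inhibitory prodomain of ADAMs, was measured at 169, 206 and 164 CPM in Ctrl and 318 and 259.8 CPM in Confine (log2 fold change 0.68, edgeR adjusted p = 0.0105). Tspan5, a tetraspanin that escorts ADAM10, was also higher but passed narrowly (log2 fold change 0.53, edgeR adjusted p = 0.0498). Genes of this and the other lists were not followed through the alternative fits. Pcsk6, another convertase, was lower (log2 fold change -2.50, edgeR adjusted p = 1.1e-05). The iRhom genes Rhbdf1 and Rhbdf2 and Frmd8, which carry ADAM17 to the cell surface, did not pass the test, with log2 fold changes of 0.39, 0.29 and -0.32.

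Of 20 listed ADAM substrates, 15 were tested, 7 were higher, 1 was lower and 7 did not pass, with a median log2 fold change of 0.53. Over all genes tested, 12.8% were higher and 10.2% lower, with a median of -0.0021. Hbegf, an EGF receptor ligand released by ADAM17, rose from 57.6, 59.3 and 40.5 CPM to 586 and 574 CPM (log2 fold change 3.47, edgeR adjusted p = 6.25e-10). Sdc4, the cell surface proteoglycan syndecan-4, rose from 2699 CPM in Ctrl 1, 2836 in Ctrl 2 and 2048 in Ctrl 3 to 11536 and 10945 CPM (log2 fold change 2.15, edgeR adjusted p = 1.33e-07). Ereg, another EGF receptor ligand, had a log2 fold change of 1.51 (edgeR adjusted p = 1.22e-04). Kitl, the membrane-bound stem cell factor, fell by 1.34 on the log2 scale (edgeR adjusted p = 6.13e-05). Tnf itself, after which ADAM17 was first named, had 0 counts in every library, and Areg, Tgfa, Btc and Epgn had at most 18 counts.

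Of 19 listed ADAMTS substrates, 14 were tested, 8 were higher (against 12.8% of all genes tested) and the other 6 did not pass, with a median log2 fold change of 0.63. Vcan, which encodes versican, had 185, 164 and 179 CPM in Ctrl and 146 and 131 CPM in Confine (log2 fold change -0.34, edgeR adjusted p = 0.18). Acan, Bcan and Ncan, the other large aggregating proteoglycans, had at most 6 counts in any library. The highest fold changes were those of Vwf (log2 fold change 2.64, 7 to 17 counts in Ctrl and 72 and 64 in Confine), Col3a1 (2.21), Fbn2 (1.05) and Fn1 (1.04), with edgeR adjusted p of 3.2e-04, 5.78e-08, 0.0429 and 3.09e-04. Of the 4 genes for modification and clearance of ADAMTS proteins, Ccbe1, Lrp1 and Pofut2 were higher. Lrp1, the endocytic receptor for ADAMTS5 and TIMP3, had a log2 fold change of 0.77 (edgeR adjusted p = 0.00314). Ccbe1, the cofactor with which ADAMTS3 activates VEGF-C, rose from 69, 118 and 49 counts to 889 and 801 (log2 fold change 3.37, edgeR adjusted p = 4.57e-08), whereas Adamts3 had no counts in any library.

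**Figure D4:**
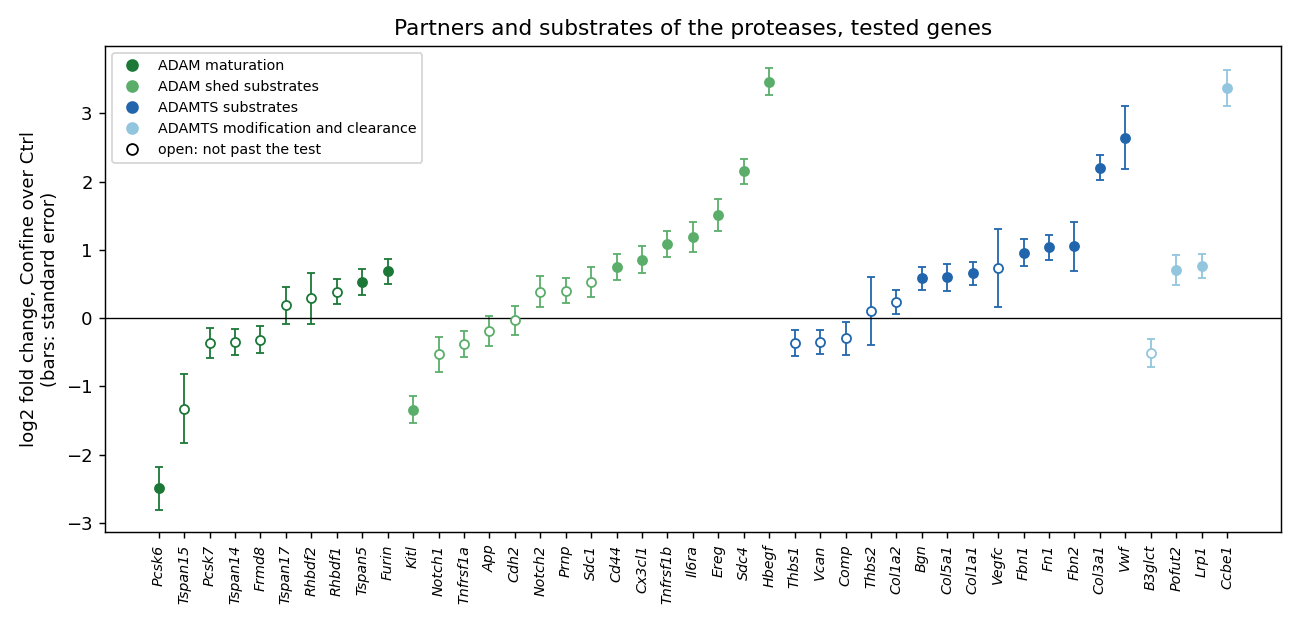
Log2 fold change, Confine over Ctrl, with bars of 1 standard error, for the tested genes of 4 lists: ADAM maturation, ADAM substrates, ADAMTS substrates, and ADAMTS modification and clearance. Filled points had an adjusted p under 0.05: Hbegf at 3.47 and Ccbe1 at 3.37 are the highest, and Pcsk6 at -2.50 the lowest.

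The last list held 17 genes, which are MMPs, the targets of TIMPs, and Reck, a membrane-anchored MMP inhibitor. Of these, 14 were tested, 6 were higher (against 12.8% of all genes tested) and the other 8 did not pass. Mmp13, Mmp3 and Mmp10, secreted collagenase and stromelysins, had log2 fold changes of 6.22, 5.88 and 5.31 (edgeR adjusted p = 2.47e-10, 2.33e-11 and 4.32e-10). Mmp12 had 0 counts in Ctrl and 113 and 31 in Confine, at least 22.0-fold higher against the floor of 3 counts in each Ctrl library. The summed level of the 17 genes was 567 to 768 CPM in Ctrl and 2967 and 5096 CPM in Confine. Mmp3 alone had 50.7, 46.6 and 46.3 CPM in Ctrl, 3721 CPM in Confine 2 and 1915 CPM in Confine 3. Mmp14 had 421, 591 and 362 CPM in Ctrl. The sum thus mostly describes Mmp14 in Ctrl and Mmp3 in Confine. Reck had a log2 fold change of -0.45 (edgeR adjusted p = 0.403), and Mmp14, the main membrane-bound MMP, 0.50 (edgeR adjusted p = 0.0917).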

How the data were processed

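RNA-seq libraries of MEFs were prepared from polyadenylated RNA, with removal of the dUTP-marked second strand. By the study's methods, a sequencing company carried out RNA extraction and sequencing. The deposited table holds the authors' raw counts, not normalized, in 6 columns. The submitters' processing notes name Trim Galore 0.6.10, HISAT2 2.1.0, SAMtools 1.5, featureCounts and mm10; the annotation and strand setting of the counting are not given in the sources used here and could move counts between overlapping genes. Of 55335 Ensembl identifiers, 54587 were found in GENCODE M21 (GRCm38) as written and 55154 once the version was dropped.

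The filter filterByExpr left 15881 genes. TMM scaling and the quasi-likelihood test came from edgeR 4.0.16 (R 4.3.3). The fit had no replicate block and 3 residual degrees of freedom. It used 3 Ctrl and 2 Confine libraries, although 3 columns were deposited for each group. Standard errors were derived from the log2 fold change and the F statistic. RPKM used the union of exons, which overstates transcript length for genes with many isoforms. Sequence copies were searched with blastn 2.17.0. On counts simulated for 15881 genes with 200 changed by a log2 fold change of 2, 90% were recovered and 4.76% of passing genes were false. Floors stand for counting error alone, because PCR reads lacking molecular identifiers may repeat 1 molecule.

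Members with an adjusted p under 0.05, the TIMPs and the 10 members with the highest RPKM were described in full, and other members by counts. Adam11, Adam22, Adam32, Adamts2, Adamts12, Adamts14, Adamts16, Adamtsl5 and Adamts20 were named outside this rule after their values were seen. So were Vcan, Reck, Mmp14, Frmd8, the iRhom genes and listed genes with few or no counts, such as Tnf. From each list, up to 4 passing genes with the largest change were named. The members and lists were chosen with earlier results of these data known. The alternatives were DESeq2 1.42.0, limma-voom 3.58.1, other normalizations, filters and cutoffs, the replicate block, the identical columns as 2 samples, and leaving out each library. Some marker and neighbouring genes are not reported here.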

Additional observations from a re-analysis of the deposited data

How the results depend on the processing

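Across 14 alternative fits of the 19 named and tested members, 239 of 266 values kept their direction and their side of the threshold. Adam19, Adam8, Adam12, Adamts7, Adamts4, Adamts5, Adamts1, Adamtsl1, Adamts10 and Timp1 kept an adjusted p under 0.05 in every one of them. Small changes reversed in 4 fits: the log2 fold change of Adam10 was -0.036 with library size alone and ranged from -0.085 to 0.40 with a library left out, and that of Timp2 was 0.056 with the replicate block and the identical columns as number 1 and ranged from -0.35 to 0.044 with a library left out. Library size alone shifted the median of all genes by -0.21, and with it Adam15, Adam17 and Adamtsl4 no longer passed and the log2 fold change of Adamts4 was 1.49. With the lower cutoff of a fold change over 1.5, 9 members were called higher and 5 lower, in place of 5 and 3 (1917 and 1542 of all 15881 genes, in place of 777 and 494). With the test against the cutoff (glmTreat), 2 members were called higher and 0 lower (4 and 1 at an unadjusted p under 0.05), against 289 and 68 of all genes. Without the filter, edgeR tested 42 members and 27065 genes and called 5 members higher and 4 lower (867 and 550 of all genes). DESeq2 fitted as many genes, though it can withhold an adjusted p at low counts. It also called 5 members higher and 4 lower (706 and 456 of all genes). Adam15 also lost its call by DESeq2 (adjusted p = 0.05004), limma-voom (0.0534) and with the identical columns as 2 samples (0.062). Adamtsl3 gained one with library size alone (adjusted p = 0.00811), no filter (0.0127), DESeq2 (0.0408), the identical columns as 2 samples (0.0413) and the block with them as number 1 (3.32e-04). With the replicate block and the identical columns as number 2, 5 members were called higher and 2 lower (703 and 438 of all genes), and 6 higher and 5 lower passed at an adjusted p under 0.05; Adam15, Adam17 and Adamtsl4 were lost. With them as number 1, 5 were called higher and 3 lower (802 and 513 of all genes), and 9 higher and 6 lower passed. Each of these fits has 1 residual degree of freedom. Differences between replicates 2 and 3 in the 2 groups had a correlation of -0.053 over the 15881 tested genes, and 0.052 with the identical columns as number 1, so nothing shows that the numbers pair the samples. Fits without a library called 5 members higher and 2 to 3 lower, and 6 to 9 higher and 4 to 6 lower had an adjusted p under 0.05. Those without a Confine library assume that the lone one varies like the others. For members with few counts, only large changes are detectable at this depth. For these changes the cause was not tested.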
